A study of Pomatostomus ruficeps with 28 samples.

Results

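The sites described here are neighbouring positions of the deposited methylation table that lie at most 10 bp apart, outside dense clusters of listed positions. A pair of consecutive positions on a scaffold was taken where the distance was at most 10 bp and where each position had at most 5 other listed positions within 250 bp on either side. This gave 117616 of the 1542086 neighbouring pairs in the table (7.63%), made of 210538 positions on 13155 scaffolds. The density limit kept 19.01% of the 618666 pairs at most 10 bp apart. The pairs were compared with 93244 neighbouring pairs 100 to 500 bp apart under the same density limit.

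Blood of 28 wild chestnut-crowned babbler nestlings (Pomatostomus ruficeps), a cooperatively breeding Australian songbird, was sequenced after enzymatic conversion (EM-seq), which leaves methylated cytosines intact and turns unmethylated ones into bases read as thymine. Of these nestlings, 19 were raised by groups, in which helpers fed the brood beside the parents, and 9 by pairs. All were sampled at 14 to 20 days of age, and some had been moved at hatching to an unrelated nest. The nestlings came from 19 natal group codes, 12 of them with a single nestling and 1 of them found in both carer classes, so that nestlings of a class are not fully independent. Carer number was not assigned by experiment, and whole blood was sampled, which in birds is mostly nucleated red cells.

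In vertebrates, DNA methylation is placed mainly on the cytosine of a CG dinucleotide (CpG). A CpG reads the same on both strands, and after replication a maintenance enzyme copies the mark from the old strand to the new one, so that both cytosines of a CpG usually carry the same state in a cell. CpGs a few bases apart on a strand are commonly read by the same sequencing fragment, whereas the 2 strands of a fragment are sequenced from separate molecules after conversion.

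The members turned out to be of 2 kinds. Exactly 1 bp separated 54526 pairs (46.4%), and 2 to 10 bp separated the other 63090 (53.6%), with 6310 to 7973 pairs at each of these distances. A CpG takes up a pair of bases, so different CpGs on a strand cannot lie 1 bp apart, and adjacent positions must be cytosines on opposite strands. The whole table held 310421 such adjacent pairs, although the stated processing collapsed both strands into a single value. Of the members 1 bp apart, 52258 stood as isolated runs of exactly 2 adjacent positions, as the 2 strands of a single CpG would. The reference sequence was not used here, so that the dinucleotide at each position was not read. The name "CpG pair" is therefore kept only for members 2 to 10 bp apart, and members 1 bp apart are called adjacent positions.

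Member positions were highly methylated. Their site means over nestlings averaged 85.8 ± 7.15% (SD over positions), with quartiles of 82.5%, 87.2% and 90.8%, against 85.1% over all positions. Exactly 100% was reached by 31.5% of member values and by 30.2% of all values. Under the coverage rule given below, a value with under 10 reads holds at least 5 methylated reads. A value of 5 reads is then always 100%, so values with few reads lean to high levels. The part of this filter in the levels was not tested. A member position had a value in a median of 20 nestlings, and 270 positions had a value in all 28.

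Depth was low and differed between libraries. The reads behind each value, recovered from the deposited coverage in 27 nestlings, averaged 7.35 to 12.1 per nestling at member positions. Summed over all listed values, they ran from 5266843 to 19539803 per nestling. A read over several positions counts at each of them, so this sum is not the size of a library. Nestlings of groups averaged 9.33 ± 1.56 reads per member value (SD, n = 19) and nestlings of pairs 9.49 ± 0.991 (SD, n = 9), which did not differ detectably (two-sided exact permutation test, p = 0.783). The spread of a value between nestlings was close to what counting so few reads gives. Over the close pairs the mean variance between nestlings was 130.5 squared percentage points and the binomial variance estimated from the reads was 124.0, a ratio of 0.950. Binomial values cover counting error only and are affected by which values passed the coverage filter. Group nestling 19 stood apart in that its methylated and unmethylated reads were filled in and none of its values had under 10 reads, whereas other nestlings had values with 5. Its mean of 12.4 reads at member positions, the highest of the 28, is therefore not on the same footing as the others. Pair nestling 3 stood apart with values at 50495 member positions, the fewest of all nestlings, against a median of 169466 over the 28.

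Agreement was measured in each nestling as the Pearson correlation r, across pairs, of the deviations of both positions from their site means. It therefore asks whether, within a nestling, a position that is high against its site mean has a neighbour that is high as well. Site means and the nestling's own average deviation are taken out. The deviations are not scaled by their spread, so r can still differ with level. Over all close pairs r was 0.238 ± 0.029 (SD, n = 28), against 0.026 ± 0.011 at 100 to 500 bp. The difference of 0.213 ± 0.025 was positive in 28 of 28 nestlings (two-sided sign-flip permutation test over nestlings, p = 1e-05, the smallest that these 100000 resamples can give, adjusted p = 1.33e-05 over 16 such comparisons). The mean absolute difference between both positions was 10.7 ± 0.536 percentage points in close pairs and 14.4 ± 0.728 points at 100 to 500 bp. It was smaller in close pairs in 28 of 28 nestlings (sign-flip permutation test, p = 1e-05, adjusted p = 1.33e-05). Unlike r, it keeps the gap between both site means, which averaged 4.10 points in close pairs and 7.16 points at 100 to 500 bp. The part of this gap in the difference was not tested.

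The mean over all close pairs joined very different values. Adjacent positions had an r of 0.051 ± 0.033 (SD, n = 28). CpG pairs 2 to 10 bp apart had an r of 0.363 ± 0.023, higher in 28 of 28 nestlings by 0.312 ± 0.042 (sign-flip permutation test, p = 1e-05, adjusted p = 1.33e-05). The lowest, median and highest r of adjacent positions were 0.021, 0.039 and 0.166 in the 19 nestlings of groups, and 0.028, 0.043 and 0.123 in the 9 nestlings of pairs. For CpG pairs the same values were 0.317, 0.359 and 0.424 in groups, and 0.342, 0.365 and 0.406 in pairs. No nestling's value for adjacent positions reached the range of CpG pairs, while the ranges of the carer classes lay over each other for both kinds. Adjacent positions still exceeded the positions 100 to 500 bp apart, by 0.025 ± 0.027 and in 27 of 28 nestlings (p = 1e-05, adjusted p = 1.33e-05). Without group nestling 19 and pair nestling 3, which had the highest values, the r of adjacent positions was 0.044 ± 0.020 (SD, n = 26) and the excess 0.020, positive in 25 of 26 nestlings.

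Within the CpG pairs agreement fell with distance. It was highest at 2 bp, with an r of 0.498 ± 0.026 (SD, n = 28). It stood at 0.382 ± 0.034 at 3 bp, 0.355 ± 0.027 at 5 bp and 0.321 ± 0.021 at 10 bp. The strands of most of these pairs are unknown, so the part of strand in this fall was not tested. From 4 bp to 10 bp the mean r of neighbouring distances differed by less than 1 SD over nestlings. The limit of 10 bp marked no step, since the pairs just inside it and those at 11 bp, just outside, had an r of 0.321 and 0.320. The density limit marked none either, with an r of 0.203 in the 27589 pairs whose denser position had 5 others around it and 0.193 in the 27118 pairs where it had 6. These sets join adjacent positions and CpG pairs. Over a wider span the excess in r of close over far pairs was higher with a stricter limit. It was 0.257 with a limit of 2 others, 0.213 with 5 and 0.148 with no limit. These values also join adjacent positions and CpG pairs. A limit of 2 leaves out each CpG pair with both strands of both CpGs listed, so the kinds of pair change with it. Density within a kind of pair was not tested. Farther out r was 0.271 ± 0.020 at 11 to 20 bp, 0.159 ± 0.015 at 21 to 50 bp, 0.062 ± 0.015 at 51 to 99 bp and 0.009 ± 0.013 beyond 500 and up to 2000 bp. Adjacent positions, the closest of all, thus stood near the level of positions 51 to 99 bp apart.

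**Figure D1:**
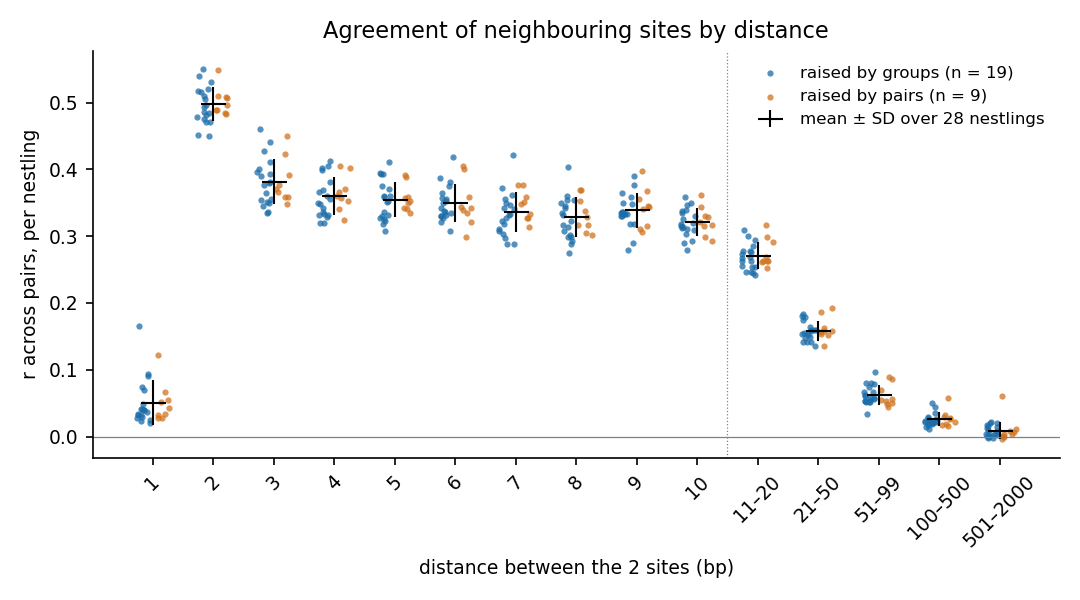
Agreement of neighbouring positions by distance. The x axis gives the distance in bp (single distances to the left of the dotted line, ranges to its right) and the y axis r across pairs, with 1 point per nestling, blue for groups and orange for pairs, and the black cross for the mean ± SD over 28 nestlings. Adjacent positions sit near 0.051, the values jump to 0.498 at 2 bp, and they fall from there to 0.026 at 100 to 500 bp.

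Absolute differences followed the same order at short range. They averaged 12.04 ± 0.402 percentage points in adjacent positions (SD, n = 28), 7.63 ± 0.672 at 2 bp and 10.5 ± 0.609 at 10 bp. Both values of a nestling were equal in 14.7% of cases in adjacent positions, 43.1% at 2 bp, 24.2% at 10 bp and 11.5% at 100 to 500 bp. Many equal values were pairs at full methylation. Both positions were at 100% in 11.9% of cases in adjacent positions and in 17.1% in CpG pairs. The CpG pairs had a smaller absolute difference than adjacent positions in 28 of 28 nestlings, with a mean difference of −2.21 ± 0.511 points (sign-flip permutation test, p = 1e-05, adjusted p = 1.33e-05).

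The mean level of a position followed a different order. Across pairs, the correlation of both site means was 0.771 in the 54526 adjacent pairs, 0.732 in the 6899 pairs 2 bp apart, 0.621 in the 6310 pairs 10 bp apart and 0.291 in the 93244 pairs 100 to 500 bp apart. These correlations run across sites, which share the nestlings and the reads, and are a description. The mean absolute difference between site means was 3.52 points both in adjacent positions and at 2 bp, 4.61 points over all CpG pairs and 7.16 points at 100 to 500 bp. Adjacent positions were thus about as alike in their mean level as pairs 2 bp apart, while their r of 0.051 for the departures of single nestlings from that level stood against 0.498 at 2 bp. In adjacent positions the variance between nestlings was 125.4 squared percentage points and the estimated binomial variance 124.4, a ratio of 0.992, against 0.886 at 2 bp. With so little spread beyond counting, a low r does not show that both strands differ within a nestling, which was not tested. Site means lay more than 30 points apart in 12 adjacent pairs (0.022%), 74 CpG pairs (0.117%) and 528 far pairs (0.566%). The first and the second position of isolated adjacent pairs did not differ detectably in level, with means of 85.96 ± 1.94% and 85.9 ± 1.99% (SD, n = 28) and a difference of 0.037 ± 0.111 points (sign-flip permutation test, p = 0.074).

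Both positions of a CpG pair were largely covered together. When either position had a value in a nestling, both had it in 84.5% of cases in CpG pairs, in 67.3% in adjacent positions and in 66.3% at 100 to 500 bp. The number of reads behind both values was the same in 71.3% of cases at 2 bp and in 40.4% at 10 bp, but in 11.6% in adjacent positions and 11.7% at 100 to 500 bp. In the shares of equal read numbers and of joint presence adjacent positions were close to the far pairs, and CpG pairs were well above both. The mean squared difference between both deviations was 0.653 times the size estimated for independent binomial sampling of the reads in CpG pairs and 0.535 times at 2 bp. It was 0.899 times in adjacent positions and 0.959 times at 100 to 500 bp. Each site mean includes the nestling itself, which was not corrected for here. This alone puts the ratio somewhat below 1 for independent positions. How far reads shared by both positions enter the agreement was not tested, since single reads were not analysed here.

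Isolated runs of 2 adjacent positions allowed the strand of a position to be read from its place, the first position of the run being taken as the forward and the second as the reverse cytosine. This reading was added after the values had been seen, and it would be wrong where both positions belong to neighbouring CpGs of which the outer strands are missing. Within the density limit 104616 positions could be typed in this way. Typed positions 3 to 10 bp apart on the same strand are not consecutive, because the partner position lies between them, so these pairs are not members. In the 4994 pairs on the same strand r was 0.430 ± 0.025 (SD, n = 28), and in the 4722 pairs on opposite strands it was 0.026 ± 0.034. The same strand was higher in 28 of 28 nestlings, by 0.403 ± 0.038 (sign-flip permutation test, p = 1e-05, adjusted p = 1.33e-05). The absolute difference was 8.79 ± 0.484 points on the same strand and 12.6 ± 0.530 points on opposite strands. The lowest, median and highest r on the same strand were 0.372, 0.427 and 0.461 in groups and 0.407, 0.434 and 0.493 in pairs. On opposite strands they were −0.028, 0.025 and 0.159 in groups and 0.003, 0.033 and 0.043 in pairs, so that the ranges of same and opposite strands did not meet in either carer class.

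Among the members, both strands could be typed in 2710 of the CpG pairs, and all 2710 lay on opposite strands, as follows from their being consecutive. No member was typed as lying on the same strand, and the strands of the other CpG pairs are unknown. Their r was 0.023 ± 0.036 (SD, n = 28), against 0.375 ± 0.023 in the other 60380 CpG pairs, lower in 28 of 28 nestlings by a mean of 0.352 (sign-flip permutation test run on its own, p = 1e-05). Their site means were correlated at 0.554 across pairs and those of the others at 0.631. Equal read numbers were found in 11.7% and 54.2% of cases. Among typed positions the number of reads was the same in 56.6% of cases on the same strand and 11.7% on opposite strands at 3 to 10 bp.

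The difference between strands became smaller with distance. At 3, 5 and 10 bp r on the same strand was 0.481 ± 0.073, 0.430 ± 0.038 and 0.408 ± 0.058. On opposite strands it was 0.018 ± 0.097, 0.004 ± 0.057 and 0.016 ± 0.052 at these distances. At 11 to 20 bp r was 0.322 ± 0.025 on the same strand and 0.030 ± 0.055 on opposite strands, higher on the same strand in 28 of 28 nestlings. At 21 to 50 bp the values were 0.177 ± 0.030 and 0.016 ± 0.023, again with 28 of 28 nestlings. At 51 to 99 bp they were 0.065 ± 0.031 and 0.018 ± 0.045, with 24 of 28 nestlings, and at 100 to 500 bp 0.023 ± 0.014 and 0.009 ± 0.017, with 22 of 28 (adjusted p = 0.000512 for the last by the sign-flip permutation test). Agreement on opposite strands was low at each distance, and its fall with distance was small beside that on the same strand. Adjacent positions exceeded positions on opposite strands 3 to 10 bp apart by 0.024 ± 0.026, in 24 of 28 nestlings (adjusted p = 5.71e-05). Opposite strands 3 to 10 bp apart exceeded opposite strands 100 to 500 bp apart by 0.018 ± 0.034, in 18 of 28 nestlings (adjusted p = 0.00839).

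**Figure D2:**
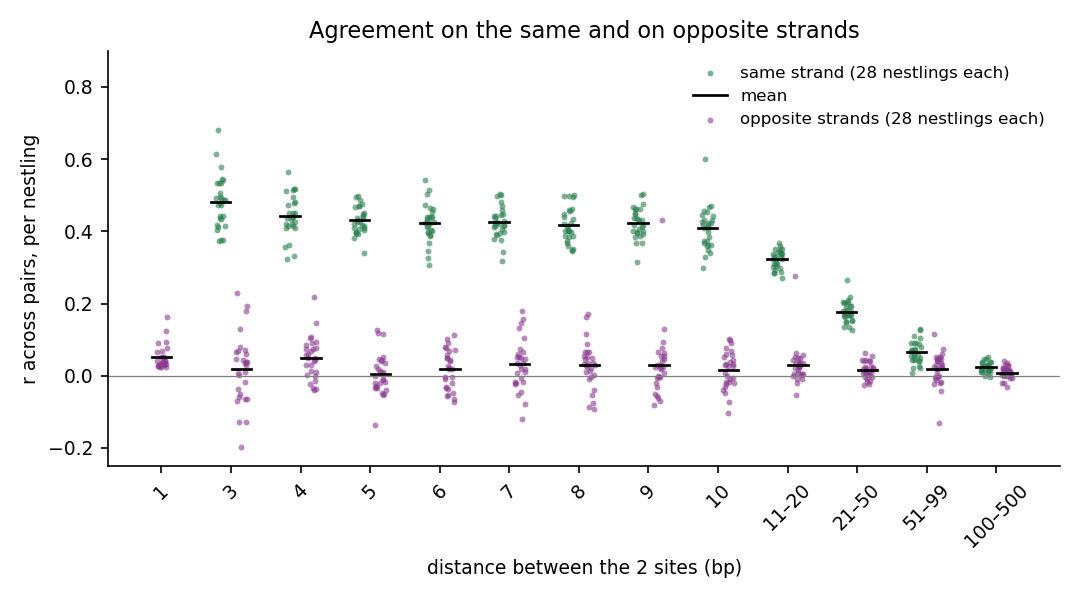
Agreement between typed positions on the same strand (green) and on opposite strands (purple). The x axis gives the distance in bp and the y axis r across pairs, with 1 point for each of 28 nestlings and a black bar for the mean. At 3 to 10 bp the same strand lies around 0.430 and opposite strands around 0.026, and both approach 0 at 100 to 500 bp.

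Agreement in adjacent positions depended on the number of reads. Values were sorted by the smaller read number of both positions. In adjacent positions r was −0.019 ± 0.016 at 5 to 7 reads (SD, n = 27 nestlings with at least 100 values), 0.049 ± 0.032 at 8 to 10 reads, 0.120 ± 0.044 at 11 to 14 reads and 0.178 ± 0.069 at 15 reads or more (n = 28 in each). At 100 to 500 bp r was −0.031, 0.016, 0.028 and 0.019 in the same classes. On opposite strands 3 to 10 bp apart it was −0.032, 0.024, 0.060 and 0.055, over 27, 28, 21 and 4 nestlings. Adjacent positions were above the far pairs in 21 of 27, 28 of 28, 28 of 28 and 27 of 27 nestlings, by 0.012, 0.033, 0.091 and 0.158 (sign-flip permutation test, p = 3e-05 for the first class and 1e-05 for the others). In CpG pairs r was 0.288 ± 0.033 at 5 to 7 reads and 0.390 ± 0.044 at 15 reads or more. At 8 to 10 and 11 to 14 reads it was 0.346 and 0.376, so that adjacent positions had the lower mean in every class of reads. The classes held very different numbers of values, in adjacent positions 458628 at 5 to 7 reads and 24020 at 15 or more. The classes also differ in which positions they hold, since highly covered positions had lower means. Negative values at 5 to 7 reads were found in adjacent and in far pairs alike, and the part of the coverage filter in them was not tested.

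**Figure D3:**
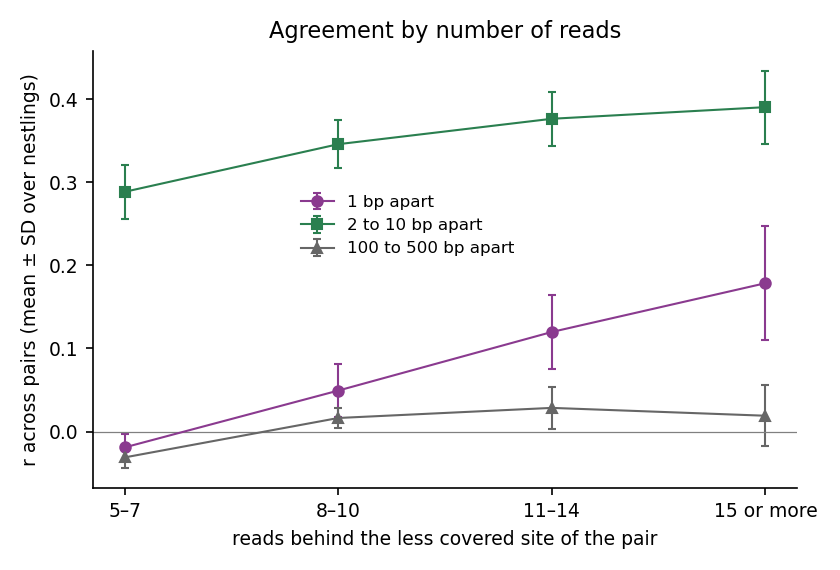
Agreement by the number of reads behind the less covered position of a pair (x axis, reads) for adjacent positions (circles), CpG pairs 2 to 10 bp apart (squares) and pairs 100 to 500 bp apart (triangles). The y axis gives r across pairs as the mean ± SD over nestlings. Adjacent positions rise from −0.019 to 0.178 while far pairs stay between −0.031 and 0.028.

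Agreement also varied with depth between nestlings, in opposite directions for the 2 kinds of pair. Over 28 nestlings the r of adjacent positions was correlated with the mean reads at member positions (Pearson's r = 0.738, permutation p = 1e-05, adjusted p = 7.2e-05 over 36 coefficients, with Spearman's rho = 0.632, p = 0.00051). It was 0.623 without the 2 nestlings farthest from the median depth, 0.806 within groups and 0.486 within pairs, where the exact permutation p was 0.190. The r of CpG pairs was negatively correlated with depth (Pearson's r = −0.490, permutation p = 0.00848, adjusted p = 0.0267, Spearman's rho = −0.510, p = 0.00637). It was −0.545 without the 2 farthest nestlings, −0.497 within groups (adjusted p = 0.083) and −0.525 within pairs (exact permutation p = 0.149), so that the relation had the same sign in both classes. After adjustment it passed within groups by Spearman's rho alone (rho = −0.593, adjusted p = 0.0267). Across the classes of reads, by contrast, the mean r of CpG pairs rose, from 0.288 at 5 to 7 reads to 0.390 at 15 reads or more. Why these directions differ was not tested. For all close pairs together no relation was detectable (Pearson's r = 0.039, permutation p = 0.849, Spearman's rho = −0.188, p = 0.335). Without the 2 farthest nestlings this value was −0.335, and without group nestling 19 alone −0.299. The mean absolute difference in CpG pairs rose with depth (Pearson's r = 0.885, permutation p = 1e-05, adjusted p = 7.2e-05, Spearman's rho = 0.883, p = 1e-05), with 0.866 without the 2 farthest nestlings, 0.887 within groups and 0.875 within pairs. Without group nestling 19 and pair nestling 3 the Pearson's r with depth was 0.742 for adjacent positions (permutation p = 8e-05), −0.588 for CpG pairs (p = 0.0019) and 0.873 for the absolute difference in CpG pairs (p = 1e-05), over 26 nestlings. Under the coverage filter, values with few reads lean to high levels. Group nestling 11, with 7.35 reads, had a mean of 88.7% and an absolute difference in CpG pairs of 8.30 points. Pair nestling 2, with 11.2 reads, had 83.1% and 10.8 points. The part of the filter in these relations with depth was not tested.

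**Figure D4:**
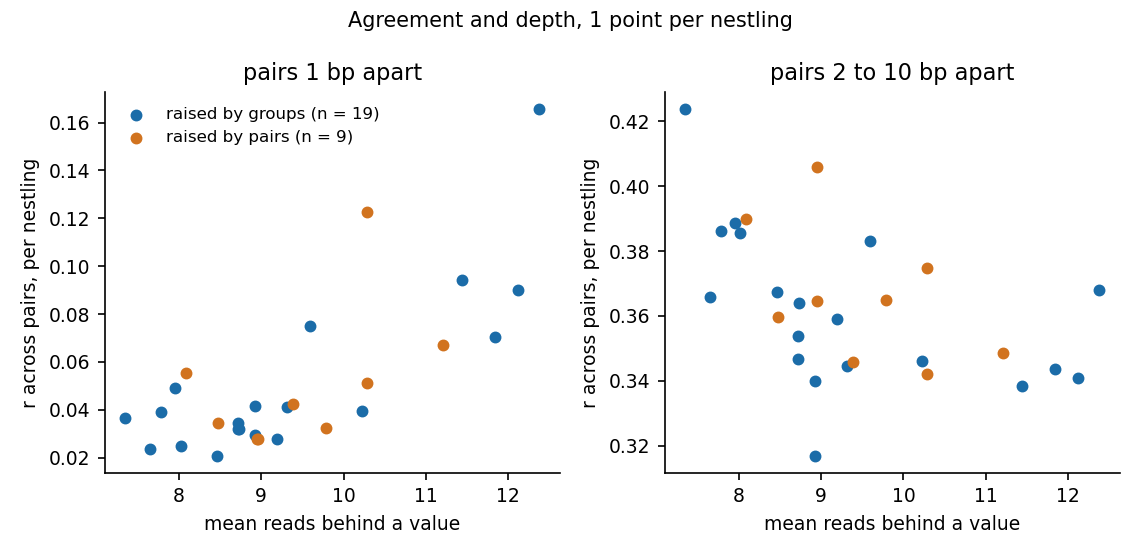
Agreement and depth in each nestling. The x axis gives the mean reads behind a value at member positions and the y axis r across pairs, on the left for adjacent positions and on the right for CpG pairs 2 to 10 bp apart, with blue points for the 19 nestlings of groups and orange points for the 9 of pairs. The left panel runs upward to 0.166 in group nestling 19, whose values all have at least 10 reads, and the right panel runs downward from 0.424 in the least deeply read.

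Agreement was lower in more highly methylated pairs, in each class of distance. Pairs were sorted by the mean of both site means. In adjacent positions r was 0.124 ± 0.052 (SD, n = 28) in the 681 pairs at 50 to 70% methylation and 0.035 ± 0.033 in the 15305 pairs at 90 to 100%. In CpG pairs it was 0.438 ± 0.043 in 1256 pairs and 0.326 ± 0.032 in 17781 pairs. At 100 to 500 bp it was 0.050 ± 0.030 and 0.013 ± 0.017. CpG pairs stood above adjacent positions in every class of level. Less methylated pairs were also read more deeply, with 18.4 reads at 50 to 70% and 8.84 at 90 to 100% in adjacent positions.

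Single pairs show what these averages are made of. They were chosen by rule among the 3543 close pairs with a value at both positions in at least 24 nestlings each, so that their extreme correlations are a description. The first pair of highest correlation lay at positions 33938 and 33940 of scaffold VYZT01040919.1, 2 bp apart, with r = 0.961 over 25 nestlings. Both positions had the same value in 22 of these nestlings. The first position was at 72.7, 88.2 and 100% (lowest, median, highest) in groups and at 90, 100 and 100% in pairs, and the second at 72.7, 85.4 and 100% and at 90, 100 and 100%. The second such pair, at positions 191 and 197 of scaffold VYZT01107088.1 and 6 bp apart, had r = 0.960 over 26 nestlings at a far lower level, with site means of 28.9 ± 8.47% and 30.9 ± 9.37% (SD over nestlings). Its values rested on medians of 48.5 and 47.5 reads, several times the median of 9 over all member values. Both sites ran together from 12.8 to 50% and from 13.2 to 53.1%, and the carer classes overlapped at both.

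The lowest correlations were both found in adjacent positions. At positions 71877 and 71878 of scaffold VYZT01015840.1, r was −0.716 over 24 nestlings, with site means of 87.2 ± 9.35% and 91.0 ± 9.10%. Nestlings that fell below the mean at 1 position of this pair were mostly at or near 100% at the other. At positions 231739 and 231740 of scaffold VYZT01003402.1, r was −0.512 over 21 nestlings, with means of 89.4% and 93.4%. Such values are the tail of a wide spread, since 43.8% of adjacent pairs had an r below 0 across nestlings and the quartiles were −0.139 and 0.231. Of the CpG pairs, 12.3% had an r below 0, and the quartiles were 0.173 and 0.573.

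A pair of adjacent positions also had the largest difference between site means. Position 555050 of scaffold VYZT01011173.1 was at 25.1 ± 8.02% and position 555051 at 90.9 ± 9.03% (SD over nestlings). The first ran from 8.33 to 43.6% and the second from 71.4 to 100%, so that their ranges did not meet. Their depths differed as well, with medians of 53.0 and 12.5 reads. The next pair lay 7 bp apart, at positions 38684 and 38691 of scaffold VYZT01008468.1, with 83.3 ± 7.65% and 24.3 ± 11.5% and similar medians of 27.0 and 23.0 reads. Across nestlings r was 0.213 in this pair (n = 25), with Spearman's rho at 0.376 and r at 0.336 without the 2 farthest nestlings. In the adjacent pair the same values were −0.006, −0.056 and 0.074 (n = 26).

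Pairs at the median correlation of their distance, among those with values in at least 24 nestlings, stood between these extremes. Over all pairs at 2, 5 and 10 bp the median correlation was lower, at 0.564, 0.387 and 0.349. At 2 bp this was the pair at positions 244463 and 244465 of scaffold VYZT01034596.1, with r = 0.581 and equal values in 10 of 26 nestlings. At 5 bp it was the pair at positions 134003 and 134008 of scaffold VYZT01055727.1, with r = 0.444 and equal values in 13 of 26 nestlings. At 10 bp it was the pair at positions 5304 and 5314 of scaffold VYZT01034683.1, with r = 0.406 and equal values in 1 of 24 nestlings. Their site means lay between 81.2 and 92.3%, and the mean absolute difference rose from 6.61 to 7.38 and 11.4 points.

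**Figure D5:**
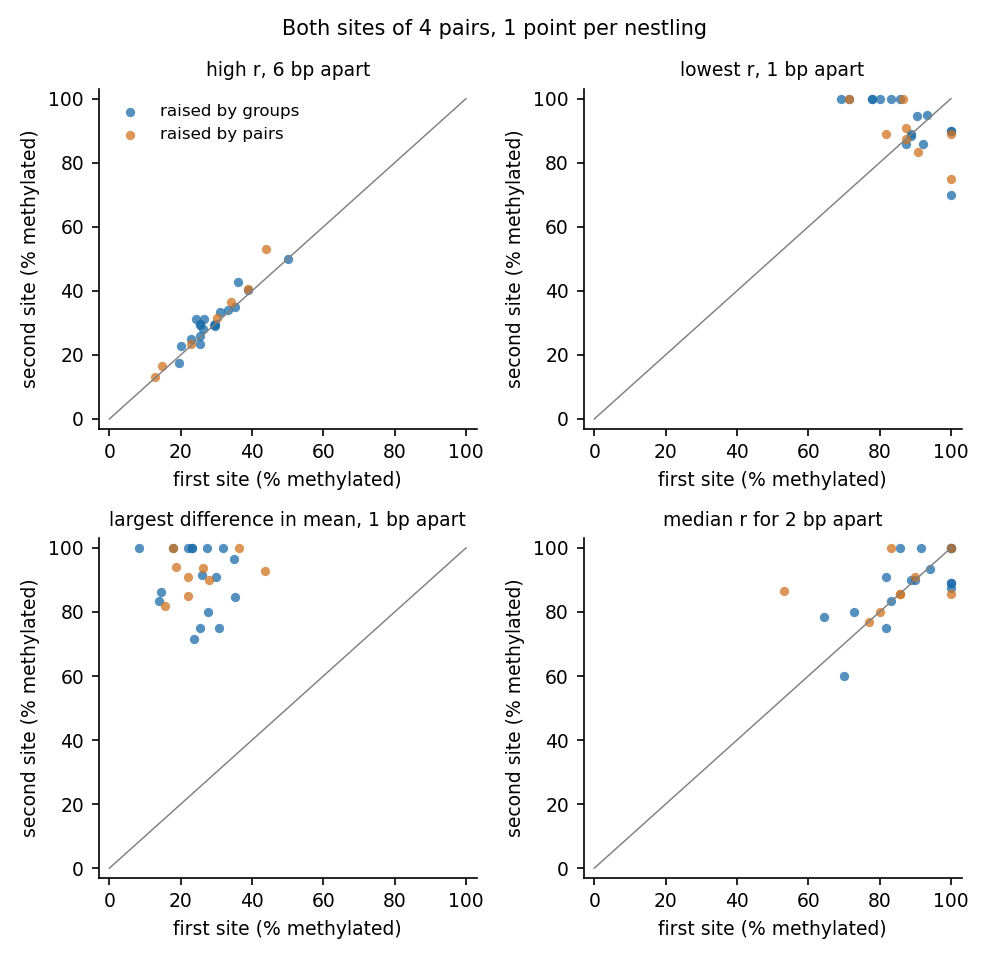
Both positions of 4 pairs, with percent methylation at the first position on the x axis and at the second on the y axis, 1 point per nestling (blue for groups, orange for pairs) and the line of equal values in grey. Points follow the line in the pair with r = 0.960, cross it in the pair with r = −0.716, stay far above it in the pair with means of 25.1 and 90.9%, and scatter along it in the pair 2 bp apart with r = 0.581.

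The study asked whether methylation differed between nestlings raised by groups and by pairs, and agreement itself did not detectably depend on the carer class. Nestlings of groups had an r of 0.239 ± 0.032 over close pairs (SD, n = 19) and those of pairs 0.236 ± 0.026 (SD, n = 9) (two-sided exact permutation test, p = 0.815, adjusted p = 0.917 over 9 such comparisons). The difference was −0.0003 in adjacent positions and −0.005 in CpG pairs (p = 0.982 and 0.603, exact permutation test). The mean deviation from the site mean over member positions was 0.317 ± 1.502 points in groups and −0.065 ± 1.73 points in pairs, a difference of 0.382 points that was smaller than the spread within either class (exact permutation test, p = 0.552, adjusted p = 0.904). The raw mean over member positions ran from 81.4 through a median of 86.4 to 88.7% in groups and from 83.1 through 85.9 to 87.7% in pairs, with the ranges overlapping.

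Few single positions were called between carer classes. A beta regression was fitted at each position, with carer class, age and a random intercept for the natal group. Of the 209371 member positions that could be fitted, 43 passed an adjusted p of 0.01 (Benjamini-Hochberg over all positions) and a difference of at least 25 points between predicted means, a share of 0.0205%. Over all 1557688 positions fitted the share was 0.0211%, so that members were called about as often as any position. Of the 43, 39 were higher in groups and 4 were lower, and over all positions 0.0178% were called higher in groups. Without the natal group 5 members were called (0.0016% over all positions), and limma on logit values called none, with 10404 members at an unadjusted p under 0.05 (4.94%, against 4.92% over all positions). The beta regressions put more positions below an unadjusted p of 0.05 than that share, with 8.91% of members and 8.87% of all positions with the natal group, and 8.39% and 8.48% without it.

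The 43 positions gave 47 combinations of a called position and its neighbour in a close pair. The neighbour was itself called in 2 of these, which are both sides of a single pair, against the share of 0.0205% called over all fitted members. This pair was made of the adjacent positions 516144 and 516145 of scaffold VYZT01048233.1. There the first position was at 86.5 ± 12.2% (SD, n = 13) in group-raised and 70.2 ± 36.6% (SD, n = 7) in pair-raised nestlings, with a lowest value of 0% in pairs. The second was at 96.4 ± 7.25% (SD, n = 13) and 70.9 ± 28.8% (SD, n = 7), with a lowest value of 9.09% in pairs. Medians lay closer than means at the first position, at 88.9% in groups and 83.3% in pairs, and were 100% and 80% at the second. The predicted differences were 48.3 and 25.4 points and the raw ones 16.2 and 25.6 points. Without the natal group only the second was called (adjusted p = 4.36e-06, beta regression), and the position 6 bp farther on, at 516151, differed by 1.41 raw points. Over the 47 combinations, with the 2 called neighbours included, the median absolute raw difference at the neighbour was 3.69 points. Over the positions of all close pairs the mean was 4.27 points, and a mean and a median are not set against each other here. The predicted differences of both had the same sign in 11 of 21 adjacent positions and 25 of 26 CpG pairs, and the raw differences in 11 and 22. Over all pairs, raw differences had the same sign in 51.4% of adjacent positions and 61.4% of CpG pairs. Where the first position differed by at least 10 raw points, these shares were 55.1% and 76.5%.

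Called positions with the smallest p rested on a very high fitted precision. The 2 of these higher in groups were position 30617 of scaffold VYZT01032519.1 and position 24736 of scaffold VYZT01056177.1, with p-values too small to be told from 0 and fitted precisions of 44499 and 12247. Position 30617 was at 75.8 ± 15.7% (SD, n = 12) in group-raised and 59.0 ± 11.5% (SD, n = 7) in pair-raised nestlings, a raw difference of 16.8 points against a predicted 30.5, and its neighbour 4 bp away differed by 2.03 raw points. Position 24736 was at 82.8 ± 10.8% (SD, n = 15) and 76.3 ± 9.51% (SD, n = 7), a raw difference of 6.49 points against a predicted 35.5. The 2 lower in groups were position 208446 of scaffold VYZT01042208.1, with raw and predicted differences of −7.04 and −25.7 points, and position 31637 of scaffold VYZT01064709.1, with −12.8 and −26.4 points. The carer classes overlapped at all 4 positions. Among the members, 26 positions passed with a precision of at most 1000, and the share over all positions was not taken.

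Raw carer differences nevertheless ran together in CpG pairs. The correlation across pairs of the raw difference at both positions was 0.333 in the 63090 CpG pairs, 0.041 in adjacent positions and 0.017 at 100 to 500 bp, and it was 0.391 on the same strand and −0.001 on opposite strands at 3 to 10 bp. These values are a description, since both positions share nestlings and reads. Both differences had the same sign in 61.4% of CpG pairs, 51.4% of adjacent positions and 50.9% of far pairs. Where the first position differed by at least 10 points between carer classes, the second had the same sign in 76.5% of CpG pairs, 55.1% of adjacent positions and 52.4% of far pairs.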

How the data were processed

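Whole-genome EM-seq of blood was analysed for 28 nestlings. The authors trimmed reads with HTStream, mapped them to the chestnut-crowned babbler genome with Bismark (versions not given in the sources used here), stated that both strands were collapsed, removed sites of low and of extreme coverage, and kept sites present in most nestlings of each carer class and variable between nestlings. The stated lower limit was a coverage of 10, whereas values in 27 nestlings had as few as 5 reads as recovered here. The deposited percent values are methylated over all reads per site and nestling, and the authors did not scale them between nestlings. The deposited counts are the coverage, and the methylated and unmethylated reads of a single nestling. A deposited score gives the variance of each site, which was not tested. The deposited age in days is in another unit, and 5 other columns, which repeat a trait or weather value of each nestling, were left out.

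In 27 nestlings each value resolved to whole reads, within 1e-06, under the reading that coverage adds up doubled methylated reads, if doubling brings them to at least 10, and unmethylated reads, if there are at least 10. A value thus exists only if either sum does. Site means were taken over the nestlings with a value. Correlations within a pair needed 10 nestlings. Tests over nestlings were two-sided sign-flip permutations (100000 resamples) or exact permutations of carer class, and correlations with depth used 100000 resamples, or exact permutations for the 9 nestlings of pairs. The natal group code stood in for brood, and cross-fostering status was not analysed here. The beta regression (logit link, Laplace approximation) failed at 7092 sites. Its carer term was within 0.01 of that of glmmTMB 1.1.9 at 197 of 197 random sites at which both converged and at all 43 called members. Scripts were tested on simulated data, on which the beta regressions called more unchanged sites than their threshold allows. The software was Python 3.11.15, numpy 2.4.6, scipy 1.17.1, numba 0.67.0, R 4.3.3 and limma 3.58.1.

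Pairs named in the text were, among close pairs with both positions valued in at least 24 nestlings, the 2 highest and the 2 lowest in correlation, the 2 with the largest difference in site means and the median pair at 2, 5 and 10 bp, with ties by scaffold and position. Also named were each pair with both positions called, and the 2 called members with the smallest p in each direction. The members and lists were chosen with earlier results of these data known. The split at 1 bp, the typing of strands, the classes of reads, the limit of 10 recovered reads, the precision limit of 1000 and the omission of group nestling 19 and pair nestling 3 were chosen after seeing the data. Positions are as the authors gave them, and genes were not analysed here.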

Additional observations from a re-analysis of the deposited data

Results flagged for a closer look

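In the 9 nestlings raised by pairs, pair nestling 3 stood far above the others in 2 of 8 measures looked at. Its r was 0.123 in adjacent positions, where the other pair nestlings ran from 0.028 to 0.067. At 100 to 500 bp its r was 0.058, where the others ran from 0.015 to 0.032. Chance alone marks about 1 in 20 groups in this way. This nestling had values at 50495 member positions, the fewest of the 28, and a mean of 10.3 reads at them. Whether its coverage enters these values was not tested.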

How the results depend on the processing

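The higher agreement of close pairs kept its direction and its call under all 17 alternatives (difference in r of 0.018 to 0.406) and without each nestling in turn (0.210 to 0.214), and so did the smaller absolute difference under its 16 alternatives (−4.79 to −1.20 points) and without each nestling (−3.69 to −3.63). The lowest gain, 0.018, belonged to opposite strands, and the highest, 0.406, to the same strand. The carer difference in agreement, which passed no test, changed sign at 20 bp (−0.000136), with values in at least 24 nestlings (−0.016), with 1 nestling per natal group (−0.00457), in adjacent positions (−0.000342), in pairs 2 to 10 bp apart (−0.00505) and on the same strand (−0.010), and ran from −0.00201 to 0.00961 without each nestling. Mean methylation kept its direction and passed no test under 8 alternatives (0.164 to 0.823 points) and without each nestling (0.059 to 0.722). The correlation of agreement with depth was −0.188 by Spearman's rho, −0.119 within pairs, −0.335 without the 2 farthest nestlings, −0.490 at 2 to 10 bp and 0.738 in adjacent positions, and ran from −0.299 (without group nestling 19) to 0.186 (without group nestling 11). The called members numbered 5 without the natal group, 0 by limma, 8 with raw means 25 points apart, 1255 with no limit on the difference, 1 with carer class alone and 26 with a precision of at most 1000. The cause of these changes was not tested. For raw means, no limit, carer class alone and the precision limit, no share over all positions was taken. Those counts therefore do not set members apart from other positions. Comparisons of distances and strands were paired within nestlings. Nestlings of groups were not paired with nestlings of pairs, because the labels name nestlings by ring and give no shared replicate numbers. A median of 9 reads behind a member value limits what can be seen in a single pair, and differences in agreement between carer classes rest on 9 nestlings of pairs.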
